A study of Oryctolagus cuniculus with 34 samples.

Results

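The cell cycle and proliferation genes described here are 37 genes chosen by name, 9 of them for DNA replication in S phase and 28 for mitosis and its preparation. All 37 were found among the 18176 genes of the count files. They were measured by bulk RNA sequencing in 34 rabbit (Oryctolagus cuniculus) libraries of the supraspinatus, one of the rotator cuff muscles. Short-term libraries came from 4 muscles with injury only, 5 with repair only and 5 treated with a matrix gel, a gel made from tissue extracellular matrix that the design text names together with repair. Long-term libraries came from 5 muscles with repair only, 5 treated with the matrix gel and 10 that were uninjured. The uninjured muscles carry the same codes in the deposited names as the operated long-term ones. The sources used here do not give the strain, sex or age of the rabbits, how the muscle was injured, the amount of gel or the length of either term. Uninjured muscle of the short term and injury-only muscle of the long term were not analysed here.

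Cells that enter the cycle copy their DNA in S phase and then separate the copies in mitosis. Replication begins when the MCM2-7 ring, a helicase, opens the double helix, the sliding clamp PCNA holds the polymerases on it, and RRM2 and TYMS help supply nucleotides. Cyclins A2, B1 and B2 with the kinase CDK1 then drive the cell into mitosis, where Aurora and Polo-like kinases, spindle motors, kinetochore proteins and the spindle checkpoint sort the chromosomes. Adult muscle fibres do not divide. The dividing cells of an injured muscle are its satellite cells (the muscle stem cells) and mononuclear cells such as fibroblasts, endothelial cells and macrophages. In bulk tissue a higher level can mean more dividing cells or more transcript per cell, and these cannot be told apart.

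Total counts ran from 26904529 to 32313295 in the 14 short-term libraries and from 12582302 to 15019158 in the 20 long-term libraries, so term and depth move together. Levels are counts scaled to a common library size, as CPM, after TMM scaling over the 34 libraries. At this depth 3 counts, the limit that a count of 0 allows, are worth 0.0616 to 0.128 CPM in a short-term and 0.199 to 0.314 CPM in a long-term library. Of the 740 values of these genes in the long-term libraries, 34.2% rest on 3 counts or fewer, against 5.98% of the 518 values in the short term. Muscle fibre markers were high in every library, with a summed level of 46100 to 282000 CPM over the 7 markers measured. Of the short-term libraries, repair replicate 5 stood apart as the highest of the 14 for 34 of the 37 genes. Repair replicate 4 was the lowest of its group for 27 of them, below the injury mean for 25 and at 0 for 8. Injury replicate 3 was the highest of the injured muscles for 23 genes, and gel replicate 5 the lowest of the gel-treated muscles for 29.

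By group means the set as a whole was highest in the short term after repair or gel, lower after the injury only, and lowest in the long term, though injured and long-term muscles overlapped. Scores here are means of log2 CPM over the genes, so a difference of 1 is a doubling of the geometric mean. The score of all 37 genes was -0.08 ± 0.40 (SD, n = 4) after injury only, 1.15 ± 1.26 (n = 5) after repair and 1.48 ± 0.52 (n = 5) with the gel in the short term. In the long term it was -0.40 ± 0.18 (n = 5) after repair, -0.70 ± 0.20 (n = 5) with the gel and -0.45 ± 0.27 (n = 10) in uninjured muscle. All 5 short-term gel-treated muscles, from 0.63 in replicate 5 to 2.05 in replicate 1, lay above all 4 injured muscles, which ran from -0.43 to 0.49. Repaired muscles covered the whole range of the short term: replicate 4 had -0.52, replicates 1 to 3 had 0.90, 1.02 and 1.33, and replicate 5 had 3.01. All 3 long-term groups overlapped one another, and their 20 libraries ran from -0.97 to 0.04.

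S-phase and mitotic genes differed in how far the groups lay apart. The S-phase score was 1.64 ± 0.32 after injury only, 2.38 ± 0.70 after repair and 2.43 ± 0.33 with the gel in the short term, and 0.94 ± 0.19, 0.98 ± 0.20 and 1.00 ± 0.20 in long-term repaired, gel-treated and uninjured muscle. The mitotic score was -0.64 ± 0.44, 0.75 ± 1.46 and 1.17 ± 0.59 in the short term, and -0.83 ± 0.22, -1.23 ± 0.25 and -0.92 ± 0.32 in the long term. The 4 injured muscles held S-phase scores of 1.44 to 2.12, above the highest long-term library at 1.34, while their mitotic scores of -1.07 to -0.03 overlapped those of uninjured muscle at -1.32 to -0.38. The S-phase score minus the mitotic score ran from 0.93 to 1.66 with the gel in the short term and from 2.15 to 2.63 after injury only, with no overlap. Among all 34 libraries it was smallest in repair replicate 5, at 0.73, and largest in repair replicate 4, at 2.95. As a difference between group means it was -0.65 for repair and -1.02 for gel against injury, and -0.14 and -0.95 for the short against the long term of repair and gel. The value of -0.14 ran from -0.47 without short-term repair replicate 4 to 0.08 without replicate 5. Phase and level are mixed here, since most mitotic genes stood below most S-phase genes after injury only. The S-phase gene RRM2, at 0.439 CPM there, had a mean log2 CPM of -1.005 after injury and 1.091 after repair. The mitotic genes TPX2 (12.5 CPM) and BIRC5 (0.99 CPM) had 3.485 and 0.094 after injury, and 3.418 and -0.207 after repair. The part of level in the difference was not tested. No p-value is attached to these scores, since the genes were chosen with earlier results of these data known.

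**Figure D1:**
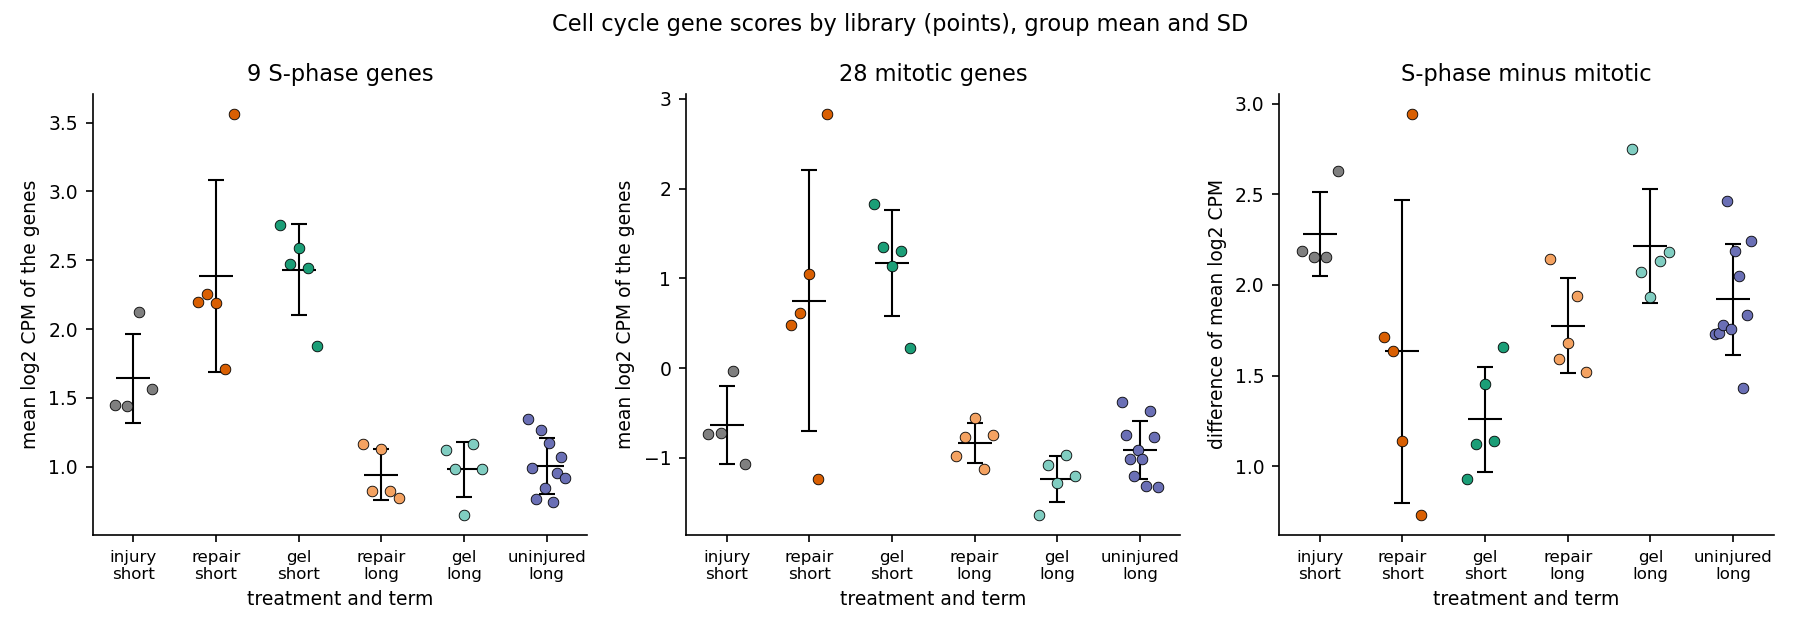
Mean log2 CPM per library (y axis) of the 9 S-phase genes (left) and the 28 mitotic genes (middle), and their difference (right), in the 6 groups of treatment and term (x axis). Points are libraries, and bars the group mean and SD. Mitotic scores of the gel-treated muscles in the short term sit between 0.23 and 1.83, all above the 4 injured muscles, while repaired muscles run from -1.24 to 2.83.

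Most of the genes followed one another and a few did not. The correlation of each gene with the mean of the other members across the 34 libraries, which share group, depth and scaling, had a median of 0.81 for S-phase and 0.89 for mitotic genes. Over the 14 short-term libraries the medians were 0.86 and 0.93, and over the 20 long-term libraries, where many genes have few counts, 0.12 and 0.40. The lowest values over all 34 libraries belonged to TPX2 at -0.41, CENPE at -0.08, MCM7 at 0.22, BIRC5 at 0.31 and PLK1 at 0.56. CENPE followed the others within the short term, at 0.78, but was at a higher level in many long-term libraries. TPX2 targets Aurora A to the spindle, CENPE is a kinetochore motor, BIRC5 (survivin) is a subunit of the chromosomal passenger complex and PLK1 is the Polo-like kinase of mitotic entry. In uninjured muscle TPX2 ran from 5.46 to 18.5 CPM, MCM7 from 11.2 to 16.8 CPM and PLK1 from 3.13 to 5.14 CPM, well above the count limit.

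**Figure D2:**
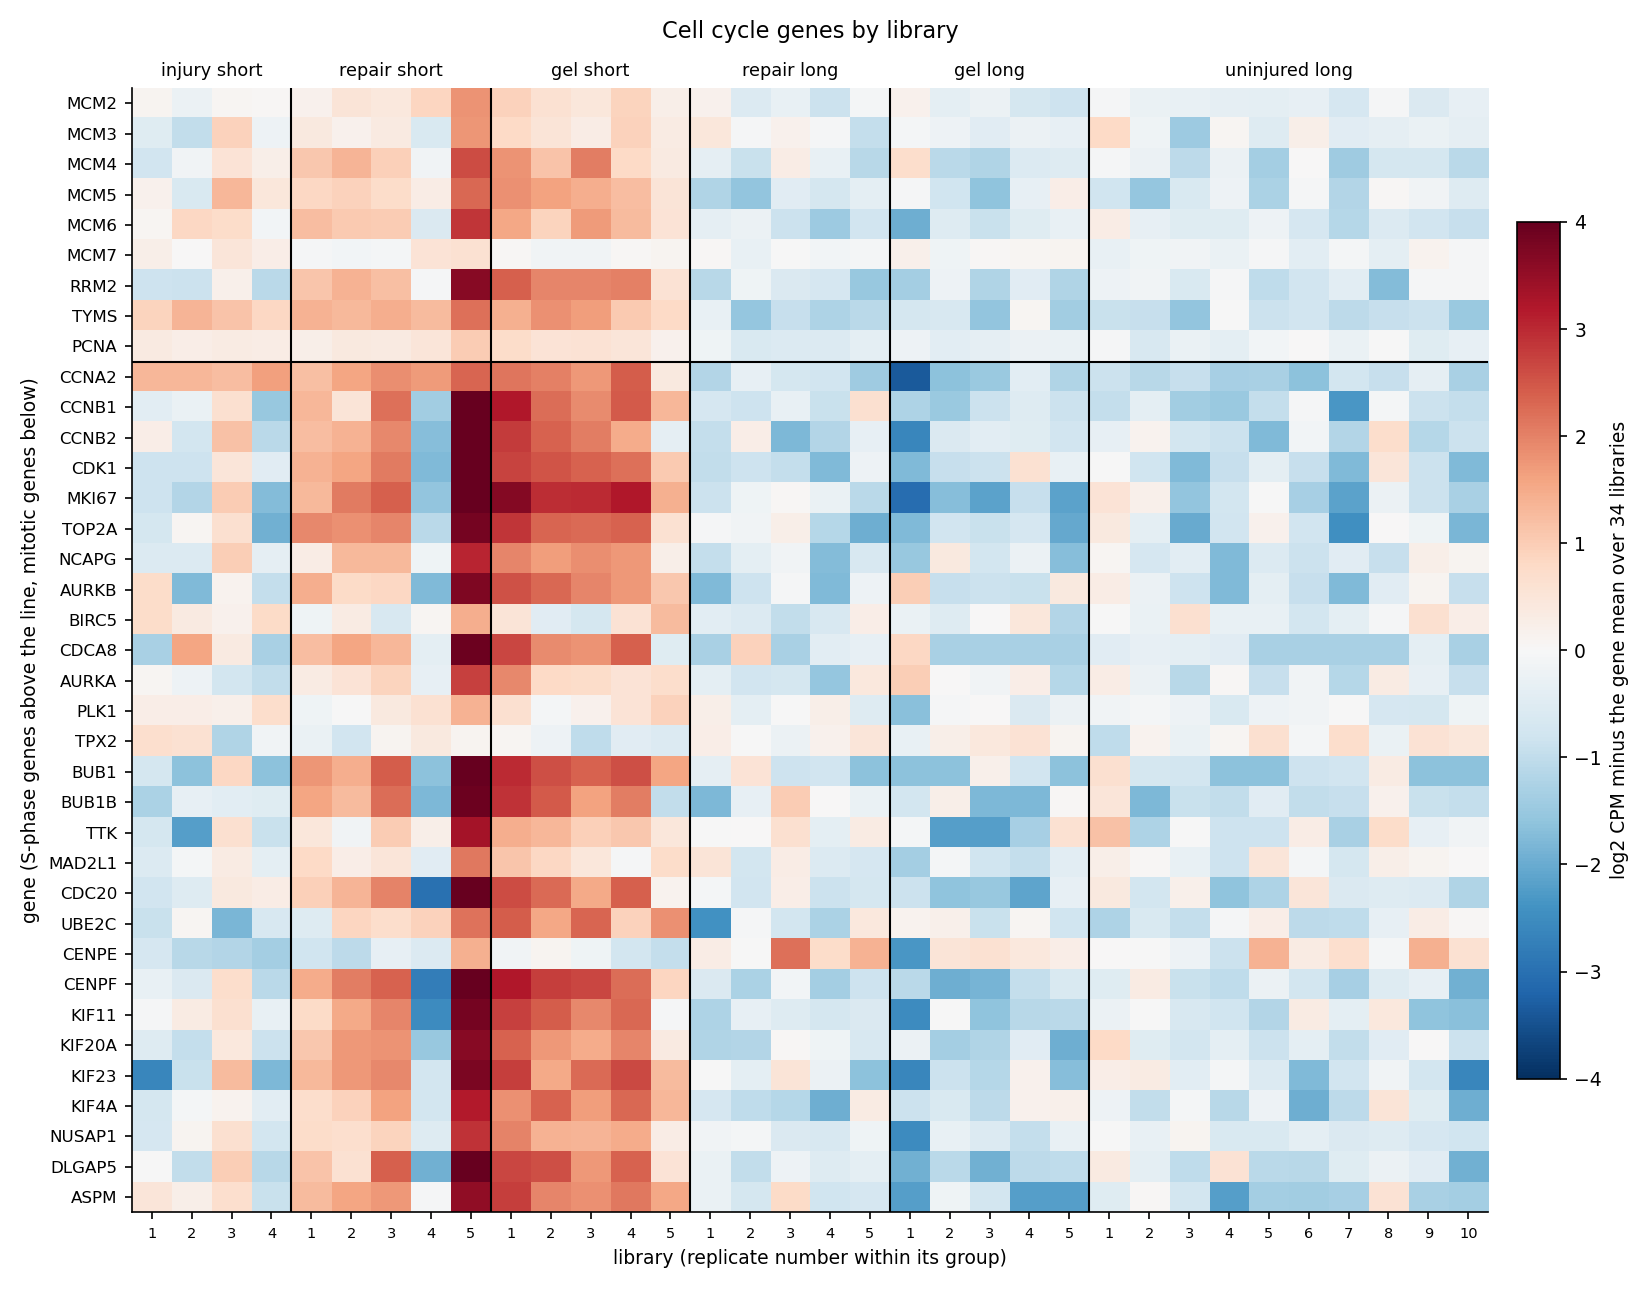
Log2 CPM of each gene minus its mean over the 34 libraries (colour, saturating at -4 and 4), with genes in rows and libraries in columns grouped by treatment and term. Short-term repair replicate 5 is the darkest red column, repair replicate 4 is blue for most mitotic genes, and the rows of TPX2, MCM7, BIRC5 and PLK1 stay pale while CENPE is redder in the long term.

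Repaired muscle was compared with injured muscle in the short term, 5 libraries against 4, which sets repair beside injury alone. The genes of mitosis had higher fitted levels after repair than after injury only, those of S phase less so, and 0 of the 37 passed an adjusted p of 0.05 over all 13526 genes tested by edgeR's quasi-likelihood test, as 0.0% of all genes did in either direction. At an unadjusted p under 0.05, 26 of 37 were higher and 0 lower, against 9.5% higher and 5.09% lower of all genes. These were 23 of 28 mitotic but 3 of 9 S-phase genes. In the injured muscles BUB1 had 0 to 17 counts, BUB1B 1 to 6, CDK1 2 to 14 and CDCA8 0 to 14. Such genes passed edgeR's filter on low counts through the repaired or gel-treated muscles, where most values are higher. The shares of all genes are therefore not a like comparison for the count of 26. The median log2 difference was 2.35 over the mitotic genes, 0.70 over the S-phase genes and 0.02 over all genes. DESeq2 called 7 of the 37 higher and limma voom with sample quality weights 13, with 244 and 4692 of all genes called.

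Of the nucleotide supply genes and the clamp, RRM2 had the highest fitted difference, TYMS gave 0.51 (SE 0.27) and PCNA the lowest. RRM2, the small subunit of ribonucleotide reductase, stood at 0.341, 0.334, 0.802 and 0.278 CPM in the 4 injured muscles and at 1.58, 1.93, 1.69, 0.658 and 9.54 CPM in the 5 repaired ones. Only repair replicate 4 lay within the injury range. The fitted log2 difference was 2.77 (SE 0.73, edgeR adjusted p = 0.322), the smallest p among the 37 genes in this comparison. PCNA stood at 14.4 to 15.2 CPM after injury and 14 to 16.8 CPM in repair replicates 1 to 4, with 24.4 CPM in replicate 5 (log2 difference 0.20, SE 0.17).

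MCM2, a subunit of the replicative helicase, was the single gene of the 37 whose groups did not overlap, where 0.991% of all genes were higher and 0.924% lower without overlap. It stood at 2.92 to 3.75 CPM in the injured muscles and at 3.97, 5.04, 4.67, 6.41 and 12.4 CPM in the repaired ones (log2 difference 0.89, SE 0.31, edgeR adjusted p = 0.322). Of the 6 helicase subunits 5 had differences above 0: MCM3 gave 0.65 (SE 0.47), MCM4 1.43 (SE 0.53), MCM5 0.70 (SE 0.48) and MCM6 1.11 (SE 0.54). MCM7 gave -0.04 (SE 0.18), at 15.2 to 21.0 CPM after injury and 14.1 to 23.0 CPM after repair.

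Cyclins with CDK1, and chromatin proteins, had median log2 differences of 2.65 and 2.64. MKI67, which coats mitotic chromosomes and is the standard proliferation marker, stood at 0.341, 0.251, 1.45 and 0.139 CPM after injury and at 1.81, 3.17, 3.9, 0.164 and 12.1 CPM after repair. Repair replicate 4 lay within the injury range and the other repaired muscles above it, replicate 5 the highest (log2 difference 2.89, SE 0.95, edgeR adjusted p = 0.322). TOP2A, the topoisomerase that untangles sister chromosomes, was likewise lowest of the repaired muscles in replicate 4 and highest in replicate 5, with 0.766, 1.38, 2.1 and 0.278 CPM after injury and 5.22, 4.9, 5.31, 0.576 and 19.9 CPM after repair (2.64, SE 0.82). CDK1, the kinase of mitotic entry, gave 3.25 (SE 1.05) from 2 to 14 counts per injured muscle, and its partner CCNB1 gave 2.97 (SE 1.02).

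Among the genes of the spindle and of mitotic exit, the kinesins KIF20A and KIF4A gave 2.60 (SE 0.81) and 2.29 (SE 0.73). UBE2C, the ubiquitin-conjugating enzyme of the anaphase-promoting complex, gave 1.81 (SE 0.53). All 6 checkpoint and anaphase genes had positive differences, from 1.08 to 3.64, and so had all 9 spindle motors and spindle proteins, from 1.16 to 2.90. In the other direction lay TPX2 at -0.20 (SE 0.34), BIRC5 at -0.15 (SE 0.53) and MCM7, all of which turn positive, at 0.32, 0.31 and 0.26, when libraries are scaled by total counts alone, a scaling that moves the median of all genes from 0.02 to 0.39.

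Single libraries set the size of this comparison. Without repair replicate 5 the count of genes higher at an unadjusted p under 0.05 went from 26 to 11 and the score difference from 1.23 to 0.77. Without injury replicate 1, 2 or 4 the count was 17, 17 or 16. With injury replicate 3 and repair replicate 4 both left out, 25 of the 37 passed an adjusted p of 0.05, but so did 4556 of the 13526 genes. These are the injured muscle with the highest score of the set (0.49) and the repaired muscle with the lowest (-0.52). Leaving them out therefore widens the difference by construction. Markers of some other cells also differed: the summed level of 7 macrophage markers was 22.6, 16.1, 102 and 30.8 CPM in injury replicates 1 to 4 and 276, 81, 150, 15.7 and 213 CPM in repair replicates 1 to 5. That of 8 fibroblast and fibro-adipogenic progenitor markers was 1090 to 6740 CPM after injury and 1120 CPM in repair replicate 4 to 61100 CPM in replicate 5. Muscle fibre markers summed to 63900 CPM in injury replicate 3 and 242000 CPM in repair replicate 4, against 175000 to 282000 CPM in the other injured and 46100 to 126000 CPM in the other repaired muscles. Over the 7 macrophage genes the median difference was 1.74 on the log2 scale (7 of 7 above 0). For the 5 satellite cell and myoblast genes it was -0.29 (2 of 5 above 0). It was 1.19 for T and B lymphocyte genes and 0.47 for pericyte and smooth muscle genes. Below 0 lay the medians of endothelial genes at -0.05, tenocyte genes at -0.08 and adipocyte genes at -1.815. Their part in the result was not tested.

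The gel-treated muscles were set against the same injured muscles, 5 libraries against 4. Mitotic genes were again higher in fitted level, and more of them separated the groups: 13 of the 37 had every gel-treated muscle above every injured one and 0 the reverse, against 4.03% and 3.33% of all genes. These were MCM2, RRM2, CCNB1, CDK1, MKI67, AURKB, AURKA, BUB1, UBE2C, CENPF, KIF23, KIF4A and ASPM. By edgeR's quasi-likelihood test 0 passed an adjusted p of 0.05 (0.0% of all genes in either direction), and 20 were higher and 0 lower at an unadjusted p under 0.05, against 9.83% and 8.6% of all genes. The 20 comprised 17 of 28 mitotic and 3 of 9 S-phase genes. In the injured muscles CDK1 had 2 to 14 counts, AURKB 0 to 10, BUB1 0 to 17 and KIF4A 3 to 12. Such genes passed the filter on low counts only through other short-term muscles. The shares of all genes are therefore not a like comparison for the counts of 13 and 20. The median log2 difference was 2.15 over mitotic genes, 0.68 over S-phase genes and 0.02 over all genes. DESeq2 called 12 of the 37 higher and limma voom with sample quality weights 23, with 762 and 3776 of all genes called.

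UBE2C had the smallest p of the 37. It stood at 1.15, 2.34, 0.551 and 1.39 CPM after injury and at 12.2, 6.63, 11.5, 4.23 and 7.96 CPM with the gel (log2 difference 2.69, SE 0.55, edgeR adjusted p = 0.124). Unlike most of the genes it was not low in gel replicate 5. MKI67 stood at 9.71, 5.84, 6.04, 6.92 and 1.98 CPM with the gel, every muscle above the highest injured one at 1.45 CPM (3.44, SE 0.97, edgeR adjusted p = 0.157). RRM2 was at 4.01, 2.95, 2.91, 3.08 and 1.06 CPM with the gel, also without overlap (2.66, SE 0.73).

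TOP2A, at 10.1, 6.99, 6.6, 7.15 and 2.02 CPM with the gel, overlapped the injured muscles through replicate 5 (2.54, SE 0.81). The remaining fitted differences were 3.05 (SE 1.04) for CDK1, 2.85 (SE 1.02) for CCNB1, 2.60 (SE 0.74) for KIF4A, 0.68 (SE 0.31) for MCM2 and 0.23 (SE 0.17) for PCNA. TPX2 at -0.51 (SE 0.34) and MCM7 at -0.23 (SE 0.18) lay below 0, as did BIRC5 at -0.09 (SE 0.53), whose sign turned to 0.09 when scaled by total counts.

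Without injury replicate 3, 3 of the 37 passed an adjusted p of 0.05, and with repair replicate 4 left out as well 17 did, with 382 and 2577 of all genes called. Injury replicate 3 had the highest score of the injured muscles, so leaving it out widens this difference by construction. Without injury replicate 4 the unadjusted count went from 20 to 13. Macrophage markers summed to 55.3 to 270 CPM with the gel (median log2 difference 1.81, 7 of 7 above 0), and 9 T and B lymphocyte markers to 3.4 to 19 CPM, against 0.468 to 2.68 CPM after injury. For the 5 satellite cell and myoblast genes the median was 0.63 (5 of 5 above 0). Their part in the result was not tested, and the comparison shares its 4 injured muscles with the one above.

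**Figure D3:**
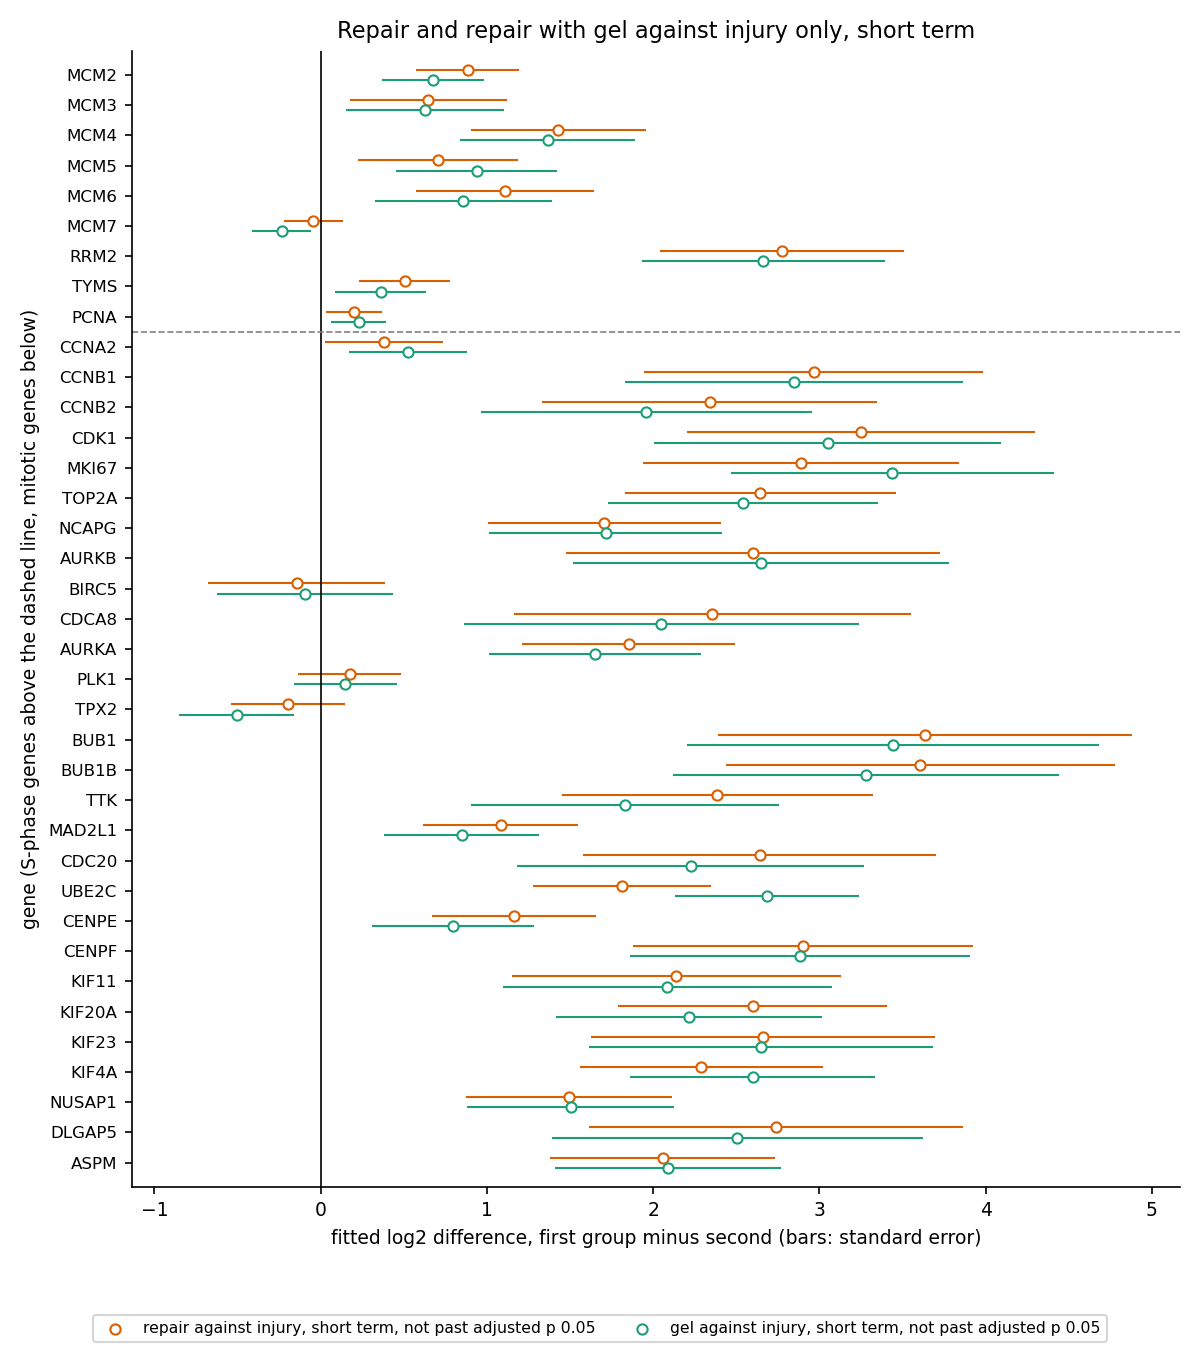
Fitted log2 difference from injured muscle (x axis) for each gene (y axis) in short-term repaired (orange) and gel-treated (green) muscle, with standard errors as bars and open circles because 0 genes passed an adjusted p of 0.05. Both comparisons use the same 4 injured muscles, and in both BUB1 and BUB1B lie above 3 while TPX2, MCM7 and BIRC5 lie below 0. In the injured muscles BUB1 rests on 0 to 17 and BUB1B on 1 to 6 counts, so the size of their differences is uncertain.

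Gel against repair, 5 libraries against 5, sets the gel beside repair without it in the short term. None of the 37 genes separated the groups, where 0.88% of all genes were higher and 1.29% lower without overlap, and edgeR's quasi-likelihood test gave 0 at an adjusted p of 0.05 (0.0% of all genes) and 0 at an unadjusted p under 0.05 in either direction, against 5.65% higher and 4.73% lower. The members' median log2 difference was -0.11, with 11 above and 26 below 0, beside -0.04 for all genes, of which 45.7% lay above 0. UBE2C had the smallest p, at 0.88 (SE 0.47, edgeR adjusted p = 0.541). MKI67 gave 0.55 (SE 0.79), KIF4A 0.31 (SE 0.62), PCNA 0.03 (SE 0.16), TOP2A -0.11 (SE 0.69), CCNB1 -0.12 (SE 0.84), CDK1 -0.20 (SE 0.84), MCM2 -0.21 (SE 0.29), MCM7 -0.19 (SE 0.17), TPX2 -0.31 (SE 0.33) and CENPE -0.37 (SE 0.45). By mean log2 CPM, TOP2A (2.57 with the gel, 2.18 after repair), CDK1 (0.51, -0.18) and CCNB1 (1.11, 0.27) were higher with the gel. MCM2, MCM7, TPX2 and CENPE were lower by that measure too.

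The groups differed more in spread than in level, a difference that was not tested: the SD of the mitotic score was 1.46 among repaired and 0.59 among gel-treated muscles. The sign of the score difference depended on 1 library. Gel minus repair was 0.33 with all libraries, 0.79 without repair replicate 5 and -0.09 without repair replicate 4. Standard errors of 0.69 to 0.84 for TOP2A, CCNB1 and CDK1 leave room for differences of more than 1 on the log2 scale.

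**Figure D4:**
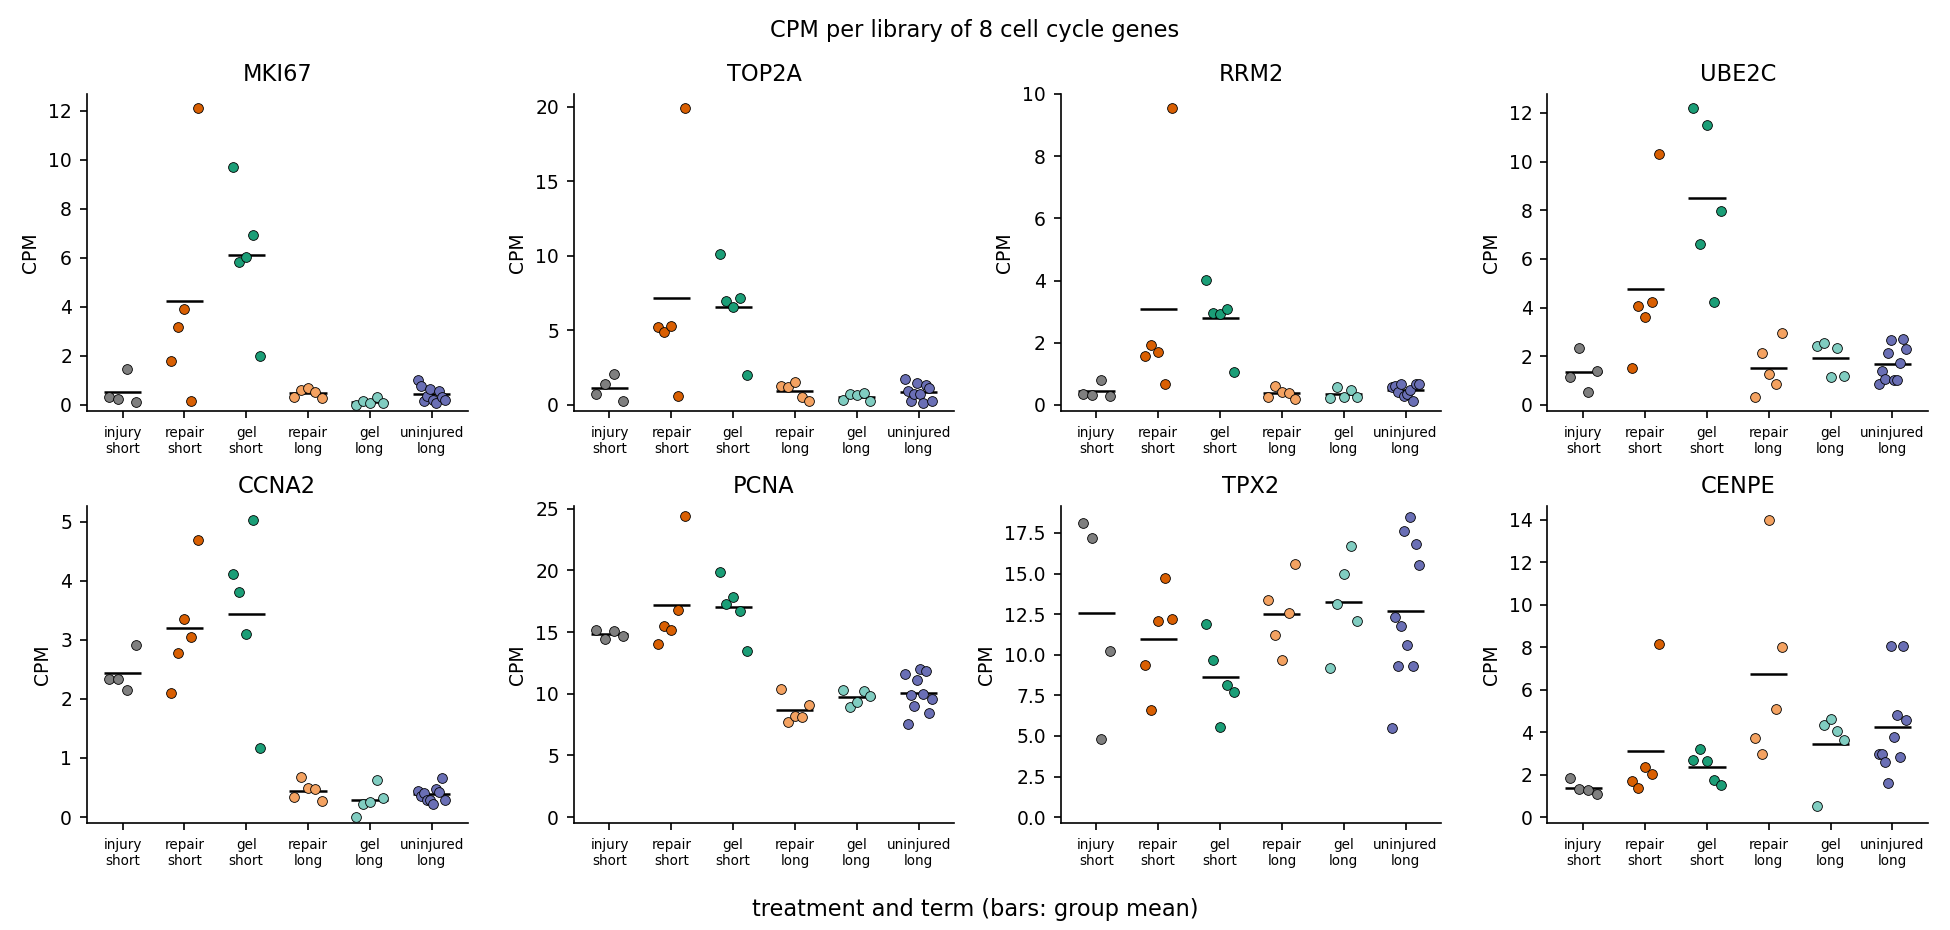
CPM per library (y axis, linear) of 8 genes in the 6 groups (x axis), with bars at the group means. MKI67, TOP2A and RRM2 have their highest means in short-term repaired and gel-treated muscles, CCNA2 and PCNA have higher means in all 3 short-term groups than in the long term, and TPX2 and CENPE do not.

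In the long term few of the genes could be measured well. Of the 37, 15 passed the filter on low counts, 8 of them S-phase genes (all but RRM2) and 7 mitotic (CENPE, MAD2L1, TOP2A, NUSAP1, PLK1, UBE2C and TPX2), so the tests below do not speak for the set. For gel against repair edgeR's quasi-likelihood test gave 0 of 15 at an adjusted p of 0.05 (0.0% of 11605 genes) and 0 at an unadjusted p under 0.05, against 7.88% higher and 6.32% lower of all genes. Groups overlapped for all 15 genes, where 1.02% of all genes were higher and 0.388% lower without overlap. The smallest p belonged to CENPE, at 3.72, 2.97, 14, 5.07 and 8.03 CPM after repair and 0.523, 4.35, 4.61, 4.07 and 3.64 CPM with the gel (log2 difference -0.97, SE 0.48, edgeR adjusted p = 0.361). MAD2L1, a spindle checkpoint protein, gave -0.59 (SE 0.33), TOP2A -0.83 (SE 0.56), NUSAP1 -0.47 (SE 0.31), PLK1 -0.35 (SE 0.25), MCM2 -0.11 (SE 0.22) and PCNA 0.13 (SE 0.14). The largest positive differences were 0.44 (SE 0.40) for MCM5, 0.37 (SE 0.44) for UBE2C and 0.21 (SE 0.37) for TYMS.

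Between repaired and uninjured muscle no difference was detected for these genes. Among the 15 tested edgeR's quasi-likelihood test gave 0 at an adjusted p of 0.05, against 0.965% higher and 0.0431% lower of all genes, and 0 at an unadjusted p under 0.05, against 7.85% and 3.87%. With the animal code of the files as a block, 0 of all genes passed. Groups overlapped for all 15 genes, where 0.0776% of all genes were higher and 0.0776% lower without overlap. CENPE gave 0.69 (SE 0.40) and PCNA -0.19 (SE 0.12), TOP2A 0.16 (SE 0.46) and MCM2 0.06 (SE 0.18). MCM5 and MCM6, also helicase subunits, gave -0.29 (SE 0.35) and -0.19 (SE 0.28), PLK1 0.25 (SE 0.21) and MCM7 0.10 (SE 0.10). PCNA ran from 7.72 to 10.4 CPM after repair and from 7.54 to 12 CPM in uninjured muscle.

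Gel-treated against uninjured muscle gave 0 of 15 at an adjusted p of 0.05 by edgeR's quasi-likelihood test, against 0.00862% higher and 0.0% lower of all genes. Among the 15, 1 gene was higher and 1 lower at an unadjusted p under 0.05, against 8.94% and 4.9% of all genes: MCM7 at 0.22 (SE 0.10, edgeR adjusted p = 0.36) and MAD2L1 at -0.65 (SE 0.29, edgeR adjusted p = 0.344). Groups overlapped for all 15 genes here too, where 0.121% of all genes were higher and 0.0776% lower without overlap. TOP2A gave -0.68 (SE 0.50), NUSAP1 -0.33 (SE 0.28), MCM6 -0.24 (SE 0.28), PCNA -0.07 (SE 0.12), MCM2 -0.05 (SE 0.19) and, above 0, MCM4 0.20 (SE 0.35) and UBE2C 0.18 (SE 0.37). MKI67 and CDK1, which the filter removed, had 0 to 4 and 0 to 5 counts per gel-treated library and 1 to 14 and 0 to 5 counts per uninjured library.

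The largest contrast of the set was between the terms. Repaired muscles of the short term were higher than those of the long term for 30 of the 37 genes at an adjusted p of 0.05 by edgeR's quasi-likelihood test, and lower for 0, where 27.9% of all 12935 genes were higher and 18.2% lower. With the gel 31 were higher and 0 lower, where 26.5% of all genes were higher and 21.8% lower. These were 7 of 9 S-phase genes in each treatment, and 23 and 24 of 28 mitotic genes. All 37 passed the filter on low counts in the fit of all 34 libraries, but only 15 in that of the long-term libraries. The rest could be tested only with the short-term libraries added, where most of them are higher. The shares of all genes are therefore not a like comparison for the counts of 30 and 31. The same holds for the counts between terms at an unadjusted p and for those without overlap. At an unadjusted p under 0.05, 34 were higher and 1 lower after repair, against 31.8% and 21.7% of all genes, and 32 were higher and 1 lower with the gel, against 30.5% and 24.7%. The members' median log2 difference was 2.65 after repair and 2.48 with the gel, beside 0.11 and 0.09 for all genes. Term cannot be told apart from depth or from any other difference between the 2 sets of libraries. Scaled by total counts alone, 34 and 33 of the 37 were higher, while the split of all genes moved to 38.0% higher and 9.22% lower after repair and 35.1% and 11.2% with the gel.

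The smallest adjusted p in repaired muscle belonged to TYMS, the thymidylate synthase that makes the DNA building block dTMP. It stood at 3.88, 3.64, 4.05, 3.54 and 6.78 CPM in the short and 1.13, 0.424, 0.709, 0.546 and 0.624 CPM in the long term, with no overlap (2.65, SE 0.32, edgeR adjusted p = 1.45e-07). CCNA2, cyclin A2 of S phase and G2, followed at 2.1, 2.77, 3.36, 3.04 and 4.69 CPM against 0.332, 0.678, 0.496, 0.468 and 0.268 CPM (2.82, SE 0.40). PCNA stood at 14 to 24.4 against 7.72 to 10.4 CPM (0.98, SE 0.14, edgeR adjusted p = 3.45e-06). In short-term repair replicate 4 TYMS, CCNA2 and PCNA stood at 3.54, 3.04 and 16.8 CPM, above every long-term repaired muscle. That library was low for most mitotic genes. It was also the lowest of its group for S-phase genes such as MCM4 (1.48 CPM), MCM6 (1.23 CPM) and RRM2 (0.658 CPM).

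Of the helicase, MCM2 was higher in the short term by 1.18 (SE 0.25), MCM4 by 1.90 (SE 0.45), MCM5 by 2.13 (SE 0.44) and MCM6 by 2.28 (SE 0.42) after repair, while MCM3 (0.67, SE 0.37) and MCM7 (0.31, SE 0.14) did not pass. RRM2 was higher by 3.04 (SE 0.55). The cyclin and kinase genes CDK1, CCNB1 and CCNB2 were higher by 4.34 (SE 0.94), 3.14 (SE 0.75) and 3.39 (SE 0.81), and the chromatin genes MKI67, TOP2A and NCAPG (a condensin subunit) by 3.10 (SE 0.71), 2.88 (SE 0.65) and 2.63 (SE 0.61). Both AURKB and CDCA8 of the passenger complex were higher, by 3.55 (SE 0.97) and 3.34 (SE 1.05), and AURKA by 1.92 (SE 0.54). In the long-term repaired muscles CDK1 rests on 0 to 2 counts, AURKB on 0 to 3 and CDCA8 on 0 to 4, so the size of their differences is uncertain.

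Spindle checkpoint and anaphase genes were higher in the short term as well after repair: BUB1 by 3.81, BUB1B by 2.75, MAD2L1 by 1.08, CDC20 by 2.99 and UBE2C by 1.67. So were the kinesins KIF11 (3.21), KIF20A (2.83), KIF23 (2.66) and KIF4A (3.05), and the spindle and kinetochore proteins CENPF (3.66), NUSAP1 (1.78), DLGAP5 (3.36) and ASPM (2.60). Few counts in the long-term repaired muscles also make the size uncertain for BUB1 and KIF4A (0 to 4), DLGAP5 (1 to 3) and KIF11 (2 to 4). The 7 that did not pass were PLK1 (0.62), CENPE (-1.11, SE 0.48, edgeR adjusted p = 0.059), MCM7, TTK (1.68), BIRC5 (0.93), MCM3 and TPX2 (-0.19, SE 0.30), the last of which turned to 0.12 when scaled by total counts. Groups did not overlap for 6 genes, TYMS, PCNA, RRM2, MCM5, MCM2 and CCNA2, all higher, against 11.5% of all genes higher and 11.3% lower. Leaving out repair replicate 5 lowered all 30 differences, among them MAD2L1 from 1.08 to 0.49, NUSAP1 from 1.78 to 0.89, AURKA from 1.92 to 1.02, CDC20 from 2.99 to 1.61, CCNB1 from 3.14 to 1.74 and BUB1B from 2.75 to 1.70. Without it 22 genes were higher and CENPE was lower (-1.86, edgeR adjusted p = 0.00267). CENPE was also called lower by DESeq2 (-1.12, adjusted p = 0.0449), by limma voom (-1.61, adjusted p = 0.00265) and without long-term repair replicate 1 (-1.27, edgeR adjusted p = 0.0415) or 2 (-1.30, edgeR adjusted p = 0.0371).

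With the gel 25 of the 37 genes were higher without overlap between the terms and 0 lower, against 17.3% and 11.2% of all genes. Because of the filter on low counts these shares are not a like comparison either. CCNA2 had the smallest adjusted p, with 4.12, 3.81, 3.1, 5.02 and 1.17 CPM in the short and 0, 0.218, 0.247, 0.626 and 0.323 CPM in the long term (3.54, SE 0.42, edgeR adjusted p = 6.74e-08). MKI67 had the largest difference, 5.49 (SE 0.86, edgeR adjusted p = 6.85e-06). In the long-term gel-treated muscles it rests on 0 to 4 counts, so the size of that difference is uncertain. The same holds for BUB1 (0 to 3 counts), CDCA8 (0 to 3), DLGAP5 (0 to 1), CCNB1 (1 to 3), CCNB2, CENPF, BUB1B, KIF4A and ASPM (at most 4). CDCA8 was at 0 in 4 of those 5 libraries, and its difference went from 3.82 to 7.13 without long-term gel replicate 1. TYMS was higher in the short term by 2.23 (SE 0.32), PCNA by 0.82 (SE 0.14), RRM2 by 2.96 (SE 0.56) and TOP2A by 3.56 (SE 0.69).

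Helicase genes were higher in the short term by 1.01 (MCM2), 1.81 (MCM4), 1.87 (MCM5) and 2.03 (MCM6) with the gel. CCNB1, CCNB2 and CDK1 were higher by 3.89, 3.13 and 3.25, NCAPG by 2.40, AURKB by 2.48, CDCA8 by 3.82 and PLK1 by 0.89. The checkpoint and anaphase genes BUB1, BUB1B, TTK, MAD2L1, CDC20 and UBE2C were higher by 4.43, 3.20, 2.12, 1.38, 3.58 and 2.14. Spindle genes were higher by 4.26 (CENPF), 3.62 (KIF11), 2.89 (KIF20A), 3.55 (KIF23), 2.70 (KIF4A), 2.22 (NUSAP1), 4.77 (DLGAP5) and 4.11 (ASPM). MCM3 (0.88), AURKA (0.99), BIRC5 (0.68), TPX2 (-0.62, SE 0.30, edgeR adjusted p = 0.082), CENPE (-0.55, SE 0.49) and MCM7 (-0.07, SE 0.14) did not pass, and MCM7 turned to 0.28 when scaled by total counts.

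**Figure D5:**
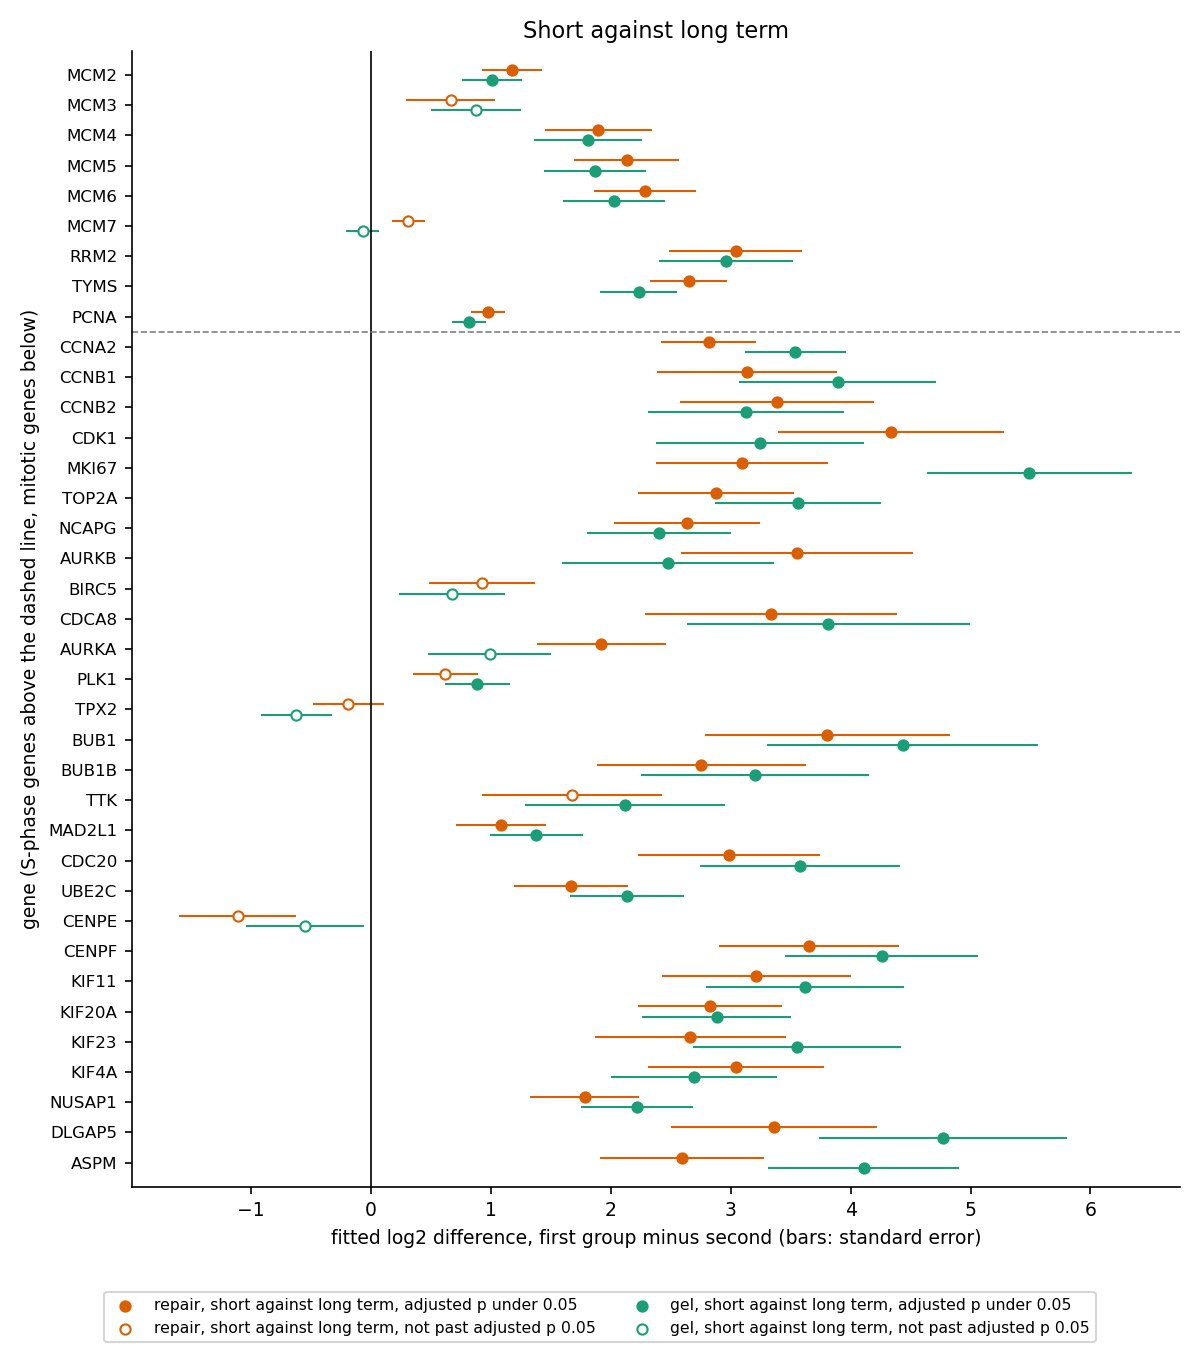
Fitted log2 difference of the short against the long term (x axis) for each gene (y axis) in repaired (orange) and gel-treated (green) muscle, with standard errors as bars. Filled circles passed an adjusted p of 0.05, 30 after repair and 31 with the gel, and CENPE and TPX2 lie below 0 in both.

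Macrophage markers were higher in the short term in the same libraries, with a median log2 difference of 2.75 after repair (6 of 7 past an adjusted p of 0.05) and 2.77 with the gel (7 of 7). Those of fibroblasts and fibro-adipogenic progenitors had medians of 1.56 and 1.01 (5 of 8 past in each), and muscle fibre markers of -0.89 and -0.72 (1 and 2 of 7 lower). Summed satellite cell and myoblast markers ran from 46.7 to 194 CPM in short-term repaired or gel-treated muscle and from 33.2 to 72.2 CPM in the long term. Their part in the result was not tested.

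Injured muscles of the short term were also set beside uninjured muscles of the long term, a pair that differs in injury as well as term. Of the 37 genes 4 were higher without overlap, TYMS, PCNA, CCNA2 and PLK1, a share close to the 9.45% of all genes, and 0 were lower (8.39% of all genes). TYMS was at 2.61 to 3.76 against 0.416 to 1.39 CPM, CCNA2 at 2.15 to 2.92 against 0.216 to 0.66 CPM, PCNA at 14.4 to 15.2 against 7.54 to 12 CPM and PLK1 at 6.06 to 8.55 against 3.13 to 5.14 CPM. MKI67, at 0.139 to 1.45 against 0.0803 to 1.02 CPM, and TOP2A, at 0.278 to 2.1 against 0.161 to 1.75 CPM, overlapped. No test was made of this pair.

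The gel effect was also compared between the terms, as gel minus repair in the short term less the same difference in the long term. By edgeR's quasi-likelihood test 0 of the 37 passed an adjusted p of 0.05 (0.00773% higher and 0.00773% lower of all genes), and 1 was higher at an unadjusted p under 0.05 (4.71% of all genes) and 0 lower (8.02%). That gene was MKI67, at 2.40 (SE 1.12, edgeR adjusted p = 0.374). It was followed by MCM7 at -0.38 (SE 0.20), ASPM at 1.51 (SE 1.06), CCNA2 at 0.72 (SE 0.57) and AURKA at -0.93 (SE 0.74). TOP2A gave 0.68 (SE 0.91), CCNB1 0.76 (SE 1.10), CDK1 -1.09 (SE 1.34), AURKB -1.07 (SE 1.34), PCNA -0.16 (SE 0.20) and MCM2 -0.16 (SE 0.35). In long-term gel-treated muscle MKI67 and ASPM rest on 0 to 4 counts, CCNB1 on 1 to 3 and CDK1 on 0 to 5. AURKB there rests on 1 to 5 counts and CCNA2 on 0 to 8. The filter removed these genes from the long-term fit, so the size of their differences is uncertain.

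Other genes of the cell cycle were counted in 8 lists beside the 37. Against injury in the short term 0 of their genes passed an adjusted p of 0.05 by edgeR's quasi-likelihood test. Values between terms are short minus long, so a positive value is a higher level in the short term, and calls between terms passed an adjusted p of 0.05. They stand beside 27.9% of all genes higher and 18.2% lower in the short term after repair, and 26.5% and 21.8% with the gel. In the fit of the long-term libraries alone fewer genes of most lists passed the filter on low counts. There 12 E2F, MuvB and FOXM1 regulators, 9 origin, 14 cyclosome and 16 condensin and cohesin genes passed. These shares are therefore not a like comparison for such lists. Whether large differences such as those of CDT1, NEK2 and MYBL2 rest on few long-term counts was not examined. In gel against repair in either term, in repair or gel against uninjured muscle and in the gel effect between terms, 0 genes of the lists passed the adjusted threshold, and at an unadjusted p under 0.05 no list had more than 4 genes in 1 direction.

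Kinetochore and spindle genes had medians of 1.54 for repair and 1.34 for gel against injury. At an unadjusted p under 0.05, 17 of 28 were higher and 0 lower for repair, where 9.5% and 5.09% of all genes were, and 14 and 0 for gel, where 9.83% and 8.6% were. In the short against the long term 19 of 25 were higher and 1 lower after repair, and 21 and 1 with the gel. In the fit of the long-term libraries alone 10 genes of this list passed the filter on low counts. The shares of all genes are therefore not a like comparison between terms. How many of the 28 passed the filter only through repaired or gel-treated muscles was not examined. The cytokinesis proteins RACGAP1 and PRC1 were higher in the short term by 2.06 (SE 0.40) and 2.19 (SE 0.45) after repair, and the microtubule depolymerase KIF2C by 3.69 (SE 0.75). With the gel CENPU, PRC1 and KIF15 were higher by 1.34, 2.34 and 1.61. SKA3, a kinetochore protein, was the one lower in the short term, at -0.97 (SE 0.33) after repair and -1.29 (SE 0.33) with the gel. The smallest p against injury belonged to KNL1 (3.61) and PRC1 (2.00) for repair, and to KIF15 (1.19) and KIF18B (3.09) for gel.

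Of 8 CDK inhibitors and pocket proteins, which hold the cycle back, 4 were higher and 3 lower in the short term after repair, and 3 and 3 with the gel. CDKN1A (p21) was higher by 2.42 (SE 0.67) after repair and 2.80 (SE 0.69) with the gel, CDKN2B by 1.86 (SE 0.49) after repair, CDKN2D by 0.64 and 0.60 and CDKN2C by 0.58 with the gel. RBL2, RB1 and CDKN1B were lower, at -0.54, -0.65 and -0.63 after repair and -1.04, -0.59 and -0.76 with the gel. Against injury CDKN1A had 2.09 (SE 0.58) for repair and 1.27 (SE 0.56) for gel, CDKN2C -0.69 for repair and RBL2 -0.70 for gel. In the long term CDKN1A had 2.33 (SE 0.57, edgeR adjusted p = 0.0519) for repair against uninjured muscle.

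Of 16 E2F, MuvB and FOXM1 regulators, which control cell cycle transcription, 6 were higher and 5 lower in the short term after repair, and 5 and 5 with the gel. MYBL2, FOXM1 and E2F1 were higher by 4.13, 2.16 and 2.12 after repair. FOXM1 and E2F1 were higher by 3.03 and 2.67 with the gel, and the histone chaperone RBBP4 by 0.86. TFDP2, LIN52 and LIN54 were lower, at -1.76, -0.84 and -1.22 after repair, and TFDP2, E2F4 and LIN52 at -2.16, -0.88 and -0.95 with the gel. Against injury the smallest p belonged to E2F7 (4.60) and FOXM1 (2.80) for repair and to E2F2 (2.52) and E2F6 (-1.43) for gel. Of the 8 G1 cyclins and kinases 3 were higher in the short term after repair, CDK4 by 0.96, CDC25A by 2.34 and CDK2 by 0.74. With the gel 0 were, and CDC25A gave 1.43 and CCND2 0.73. Against injury CDK4 gave 0.63 and CDK6 0.78 for repair, and CDC25A 1.53 and CDK4 0.31 for gel.

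Of 23 replication polymerase and fork genes 9 were higher and 0 lower in the short term after repair. With the gel 4 were higher and 3 lower, both shares under those of all genes. DNA ligase LIG1 was higher by 2.04 and 1.27, the primase PRIM1 by 1.41 after repair and thymidine kinase TK1 by 2.91 with the gel. RPA2, POLA1 and RPA1 were lower with the gel, at -0.65, -0.47 and -0.38. Of 13 origin licensing and firing genes 4 were higher and 1 lower after repair, and 4 and 2 with the gel, shares higher that lie close to those of all genes. ORC1 was higher by 1.84 and 1.93, CDT1 by 3.33 and 5.35, GINS2 by 2.55 after repair and CDC6 by 1.99 with the gel. TOPBP1 was lower, at -1.10 and -1.04, and ORC5 at -0.57 with the gel. Against injury LIG1 gave 1.36 and 1.21, CHAF1B 1.82 for repair, TK1 2.53 for gel, ORC1 1.52 and 2.01 and MCM10 4.08 and 3.91.

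Of 18 condensin, cohesin and separation genes 7 were higher and 2 lower in the short term after repair, and 7 and 3 with the gel. The securin PTTG1 was higher by 2.45 (SE 0.28) and 1.84 (SE 0.27), SGO2 by 2.59 and 3.19, ESPL1 (separase) by 1.71 after repair and SMC4 by 1.66 with the gel. The cohesin genes RAD21 and STAG1 were lower, at -0.70 and -0.56 after repair and -0.49 and -0.63 with the gel, where NCAPH2 was at -0.64. Of 18 genes of the cyclosome and of mitotic entry or exit 6 were higher and 0 lower after repair, and 5 and 2 with the gel, shares higher that lie close to those of all genes. CKS1B was higher by 3.02 and 3.03, UBE2S by 1.01 and 1.14, CKS2 by 3.20 after repair and NEK2 by 4.73 with the gel, where CDC23 and ANAPC5 were lower, at -0.56 and -0.44. Against injury ESPL1 gave 1.58 and SGO1 2.72 for repair, STAG1 -0.60 and SMC3 -0.40 for gel, CKS1B 1.84 for repair, MELK 3.61 and 3.26, and NEK2 3.42 for gel.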

How the data were processed

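Per the labels' protocols, an outside company extracted the RNA and made the 34 libraries. The files that the authors deposited hold raw counts of reads per gene, which are whole numbers. The submitters' processing notes name STAR, edgeR and OryCun2.0. No source used here gives their versions, the read counter, the gene annotation or the strand setting, so reads of overlapping or near-identical genes may be mixed. Of 18210 entries, 26 named as dates (up to 0.163% of a library) were dropped and 15 repeated entries were summed by symbol.

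Sample titles gave groups and replicate numbers. Whether libraries are separate animals is not stated, so p-values measure only the spread between these libraries, which may be technical. Codes in the deposited names differ between the libraries of a group, and they join long-term operated muscles to uninjured ones. The main tests against uninjured muscle did not use this pairing. Correlations of deviations within these pairs were -0.014 to 0.322 for repair (4 of 5 over 0.1) and -0.19 to 0.16 for gel (2 of 5).

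The main test was edgeR's quasi-likelihood test (edgeR 4.0.16, R 4.3.3), robust, with TMM scaling and edgeR's filter on low counts. One fit held the 14 short-term libraries (13526 genes), one the 20 long-term libraries (11605) and one all 34 for the comparisons between terms (12935). P-values are 2-sided and Benjamini-Hochberg adjusted over all genes of a fit, with a threshold of 0.05. Log2 CPM has a prior count of 2. Scripts were tested on simulated counts.

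Members and lists were chosen with earlier results of these data known. Each comparison names MKI67, TOP2A, CDK1, CCNB1, MCM2 and PCNA, genes past the threshold, the 5 smallest p and the 3 genes furthest against the median of the members. Other members, and the setting of injured beside uninjured muscle, were chosen after their values were seen. Pathway lists name up to 3 genes past the threshold in each direction, otherwise the 2 smallest p. Comparisons in which 0 list genes passed, other than those against injury, are given for the lists by counts alone, apart from CDKN1A, and 1 further gene that the rule names is not reported here. Alternatives were other scalings, DESeq2 1.42.0, limma 3.58.1 (voom), no filter, other sets of libraries, replicate blocks and fits without single libraries.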

Additional observations from a re-analysis of the deposited data

Results flagged for a closer look

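Outlying libraries were sought in 240 pairs of a group and a gene or score, and 14 held one whose gap to the next library was large against the range of its group. Chance gives about 1 in 20 such pairs. Gel replicate 5 of the short term was low for 4 genes: RRM2 at 1.06 CPM (others 2.91 to 4.01), TOP2A at 2.02 (6.6 to 10.1), NCAPG at 0.566 (1.71 to 2.12) and CDCA8 at 0.0708 (0.699 to 1.36). Gel replicate 1 of the short term was high for AURKA at 2.71 CPM (0.984 to 1.18), and repair replicate 5 for TYMS at 6.78 CPM (3.54 to 4.05). Among injured muscles NCAPG was high in replicate 3 at 1.03 CPM (0.292 to 0.347), PLK1 in replicate 4 at 8.55 CPM (6.06 to 6.34), and MCM2 low in replicate 2 at 2.92 CPM (3.61 to 3.75). The S-phase score minus the mitotic score was high in injury replicate 4, at 2.63 (2.15 to 2.19). In the long term gel replicate 1 was low for CENPE at 0.523 CPM (3.64 to 4.61) and for CCNB2 at 0 (0.242 to 0.329), and high for CDCA8 at 0.314 CPM where the others were at 0. Uninjured replicate 4 was high for TYMS at 1.39 CPM (0.416 to 0.794).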

How the results depend on the processing

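Counts of members called at an adjusted p of 0.05 moved in 2 comparisons. For repair against injury they went from 0 to 7 by DESeq2, 13 by limma voom, 15 with all 34 libraries in one fit and 25 without injury replicate 3 and repair replicate 4 together, which also moved the score difference from 1.23 to 1.84. For gel against injury they went from 0 to 12, 13 (all 34 libraries), 23 (voom) and 17 under the same settings, and ran from 0 to 3 when single libraries were left out. The pair left out together held the injured muscle with the highest score and the repaired muscle with the lowest, which widens the differences by construction. Counts higher at an unadjusted p, an alternative chosen after seeing the data, went for repair from 26 to 15 in a fit of only the groups compared, to 6 with the replicate number as a block, and to 11 to 28 without single libraries; for gel they ran from 13 to 25. Between terms the counts of 30 and 31 became 20 and 27 with only the groups compared and 26 and 31 with the replicate block, and 23 to 33 and 29 to 32 without single libraries. Correlations within replicate numbers exceeded 0.1 in 0 to 2 pairs per comparison. Gel-treated and uninjured muscles that share a code gave 2 of 5, so this check cannot decide whether replicate numbers pair the samples. With a prior count of 0.5 the S-phase minus mitotic difference for gel between terms moved from -0.95 to -1.40. The cause of these changes was not tested.

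Signs reversed for log2 differences near 0. With total counts alone PCNA gave -0.17 for gel against repair in the short and -0.023 in the long term, TPX2, BIRC5 and MCM7 gave 0.32, 0.31 and 0.26 for repair against injury, BIRC5 0.085 for gel against injury, TPX2 0.12 for repair and MCM7 0.28 for gel between terms. With all 34 libraries in one fit PCNA gave -0.008 for gel against repair in the short term. With voom that comparison gave TOP2A 0.31, CDK1 0.66, CCNB1 1.18, MCM2 0.17, MCM7 0.035, TPX2 0.024 and CENPE 0.31; MCM2 gave -0.015 for repair and MCM6 0.002 and MCM4 -0.17 for gel against uninjured, MCM7 0.016 for gel between terms, and the gel effect between terms 0.28 for MCM2, 0.003 for PCNA and 0.65 for AURKB. The replicate block gave TOP2A 0.64, CDK1 0.82 and CCNB1 1.22 for gel against repair in the short term, and the animal code as a block TOP2A -0.14 and MCM5 0.15 for repair against uninjured.

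Without single libraries gel against repair in the short term ran from -0.40 to 0.73 for TOP2A, -0.52 to 1.03 for CDK1, -0.43 to 1.28 for CCNB1, -0.35 to 0.15 for MCM2, -0.047 to 0.17 for PCNA and -0.55 to 0.36 for CENPE. TPX2 ran from -0.52 to 0.028 for repair and BIRC5 from -0.46 to 0.075 for gel against injury. In the long term MCM2 ran from -0.27 to 0.045 and TYMS from -0.13 to 0.48 for gel against repair, TOP2A from -0.087 to 0.38 and MCM2 from -0.092 to 0.18 for repair against uninjured, and MCM2 from -0.21 to 0.05 and MCM4 from -0.25 to 0.36 for gel against uninjured. The gel effect between terms ran from -1.53 to 0.15 for CDK1, -0.31 to 0.22 for MCM2, -0.24 to 0.011 for PCNA and -1.66 to 0.35 for AURKB.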
